A study of Mus musculus with 3 samples.

Results

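Hemoglobin-high cells are the 65 cells, of 3470 that the authors kept, with the largest share of hemoglobin RNA among LSK cells, the Lin-Sca1+ckit+ bone marrow cells, stem cells and multipotent progenitors among them. For each kept cell, the UMIs (unique molecular identifiers, 1 per captured RNA molecule) of Hbb-bt, Hbb-bs, Hba-a1 and Hba-a2 were summed, divided by the cell's gene UMIs and multiplied by 10000. The 65 cells were selected on these measured values alone and set against all other kept cells. The cells came from 2 mice labelled Helios deficient and 2 labelled WT (wild type). The labels of both genotypes give no age, strain or sex, and do not say how, or in which cells, Ikzf2, the gene of the transcription factor Helios, was disrupted. All 4 mice shared the same sort, the same staining and 1 droplet run with 3′ v2 chemistry, into which 2500 cells per mouse were pooled. Each mouse carried its own hashtag (an oligonucleotide-tagged anti-CD45 and anti-MHCI antibody), and 4 further tagged antibodies counted the surface proteins CD48, CD150, CD41 and CD135 (Flt3) in the same cells. Helios-deficient mice 1 and 2 gave 557 and 824 kept cells, against 1175 and 914 from wild-type mice 1 and 2, and a mouse had between 5729987 and 10317599 gene UMIs in all. That the mice were separate animals comes from the hashtags, and nothing in the labels says that they were handled on separate days. Which barcodes were kept, and why, is not given in the sources used here.

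Adult hemoglobin is a tetramer of alpha chains, from Hba-a1 and Hba-a2, and beta chains, in mice from Hbb-bs and Hbb-bt. Red cell precursors make both kinds in near balance under transcription factors such as Gata1 and Klf1, together with the enzymes of heme synthesis. Stem cells and multipotent progenitors lie upstream of that program, and Procr and Emcn, given beside the hemoglobin genes as markers of these cells, encode a protein C receptor and a sialomucin found on stem cells.

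The regions upstream of the beta genes are shown because most hemoglobin-high cells had RNA of one of them and none of the other. Both genes lie on chromosome 7 (GRCm38.p6 coordinates, the RefSeq assembly, minus strand), Hbb-bt at chr7:103812524-103813923 and Hbb-bs at chr7:103826523-103827928. The 250 bases before each start, at chr7:103813924-103814173 for Hbb-bt and chr7:103827929-103828178 for Hbb-bs, read 5′ to 3′ with motif matches in capitals.
Hbb-bt: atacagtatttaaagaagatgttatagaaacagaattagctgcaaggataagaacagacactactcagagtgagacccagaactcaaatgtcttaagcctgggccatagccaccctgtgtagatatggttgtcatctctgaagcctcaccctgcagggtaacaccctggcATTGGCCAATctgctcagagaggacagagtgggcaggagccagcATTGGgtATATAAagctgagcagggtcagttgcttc
Hbb-bs: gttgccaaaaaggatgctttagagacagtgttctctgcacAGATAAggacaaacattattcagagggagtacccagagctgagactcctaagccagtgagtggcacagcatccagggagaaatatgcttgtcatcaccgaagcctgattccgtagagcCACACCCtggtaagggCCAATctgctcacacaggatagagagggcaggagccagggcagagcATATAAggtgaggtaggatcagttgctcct
The motifs were searched on both strands of all promoters in the RefSeq table, and no matches overlapped. The letters CACACCC had 1 match before Hbb-bs and 0 before Hbb-bt, and 6.93% of 32851 promoters held them. The letters CCAAT had 3 matches before Hbb-bt and 1 before Hbb-bs (33.9% of promoters). The letters ATATAA had 1 match in each (9.1%). A match to AGATAA, or to its variant with T in front, was found once before Hbb-bs and 0 times before Hbb-bt (16.6%). The upstream regions were identical at 70.5% of aligned positions between the beta genes and at 97.6% between Hba-a1 and Hba-a2. The genes of each pair are near copies of each other, how reads shared by such copies were counted is not given in the sources used here, and the split between the members of a pair is uncertain to that extent.

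The hemoglobin content of the 65 cells, which the selection fixed and which is given as a description, was low except in 1 cell. Their hemoglobin UMIs ranged from 4 to 239 with a median of 16, and per 10000 gene UMIs from 10.3 to 434 with a median of 17.9. The last cell taken in had 10.29 per 10000 and the first left out had 10.28, so the limit fell in a continuous slope and not in a gap. Among the other listed cells, 699 had at least 1 hemoglobin UMI and 2706 had none.

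Hbb-bt stood alone in most hemoglobin-high cells. In 52 of the 65, all hemoglobin UMIs were from Hbb-bt, with 4 to 49 UMIs (median 12.5) in a cell. These 52 cells were spread over all mice, with 9 and 4 in Helios-deficient mice 1 and 2 and 22 and 17 in wild-type mice 1 and 2. Hbb-bt was detected in 63 of the 65 cells, Hbb-bs in 13, Hba-a1 in 10 and Hba-a2 in 10. Among all kept cells the same held at higher counts: of 47 cells with 10 or more Hbb-bt UMIs, 43 had no UMI of the other hemoglobin genes. The 16 cells with 20 to 49 Hbb-bt UMIs held 1 Hbb-bs UMI and 0 alpha UMIs between them.

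**Figure D1:**
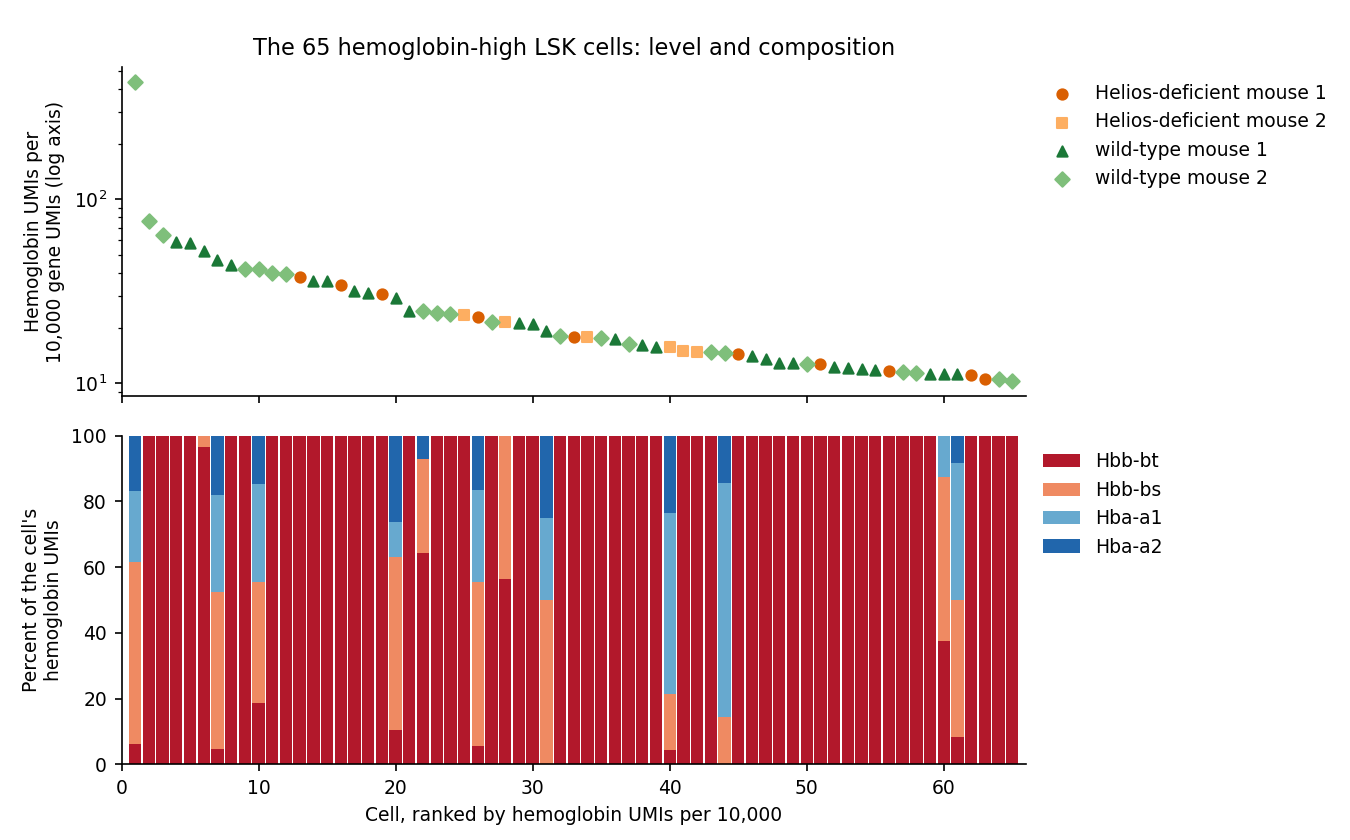
The upper panel shows hemoglobin UMIs per 10000 gene UMIs (log axis) of the 65 hemoglobin-high cells ranked by that value, with mice by colour and marker, and the lower panel shows what percent of each cell's hemoglobin UMIs each gene gave. The 52 solid columns are the cells with Hbb-bt only, and the first cell, at 434 per 10000, is mostly Hbb-bs.

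The other 13 cells had a different mixture. Of these, 11 had Hbb-bt with at least 1 other hemoglobin gene and 2 had no Hbb-bt. The richest cell, from wild-type mouse 2, held 239 hemoglobin UMIs among its 5511 gene UMIs, with 15 of Hbb-bt, 132 of Hbb-bs, 52 of Hba-a1 and 40 of Hba-a2. It held 224 of the 450 UMIs of Hbb-bs, Hba-a1 and Hba-a2 in the 65 cells. Over the 65 cells Hbb-bt gave 66.5% of 1344 hemoglobin UMIs, Hbb-bs 16.6%, Hba-a1 10.8% and Hba-a2 6.10%, and without the richest cell Hbb-bt gave 79.5%.

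Cells rich in Car1 had yet another mixture. Car1, the carbonic anhydrase 1 gene of early erythroid progenitors, was at 92 UMIs in 1 hemoglobin-high cell of Helios-deficient mouse 2 and at 102 UMIs in 1 of wild-type mouse 2. It was at 0 in the other 63 cells. These Car1-rich cells were also the deepest of the 65, at 29931 and 28882 UMIs, and the only ones with more than 20000. They had 15 and 9 UMIs of Klf1, the master regulator of red cell genes, and 26 and 30 of Hba-a1 against 2 and 0 of Hbb-bt. Over the 35 kept cells with 5 or more Car1 UMIs, 65.2% of 112 hemoglobin UMIs were Hba-a1 and 3.57% were Hbb-bt. Most such cells had little hemoglobin RNA, since 33 of the 35 were not hemoglobin-high and these held 23 hemoglobin UMIs between them, 17 of them in 1 cell.

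One barcode outside the kept cells had far more hemoglobin than any kept cell for its size. It had no hashtag call and 500 gene UMIs, of which 215 were hemoglobin, a share of 43%. Its hemoglobin UMIs were 15 of Hbb-bt, 81 of Hbb-bs, 66 of Hba-a1 and 53 of Hba-a2, so that Hbb-bt gave 6.98%. The other listed cells had 83.1% Hbb-bt among 1463 hemoglobin UMIs. The hemoglobin-high cells ranked 2 to 5, at 58.1 to 76.3 hemoglobin UMIs per 10000, had Hbb-bt only, so a high hemoglobin share did not by itself go with a small share of Hbb-bt.

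**Figure D2:**
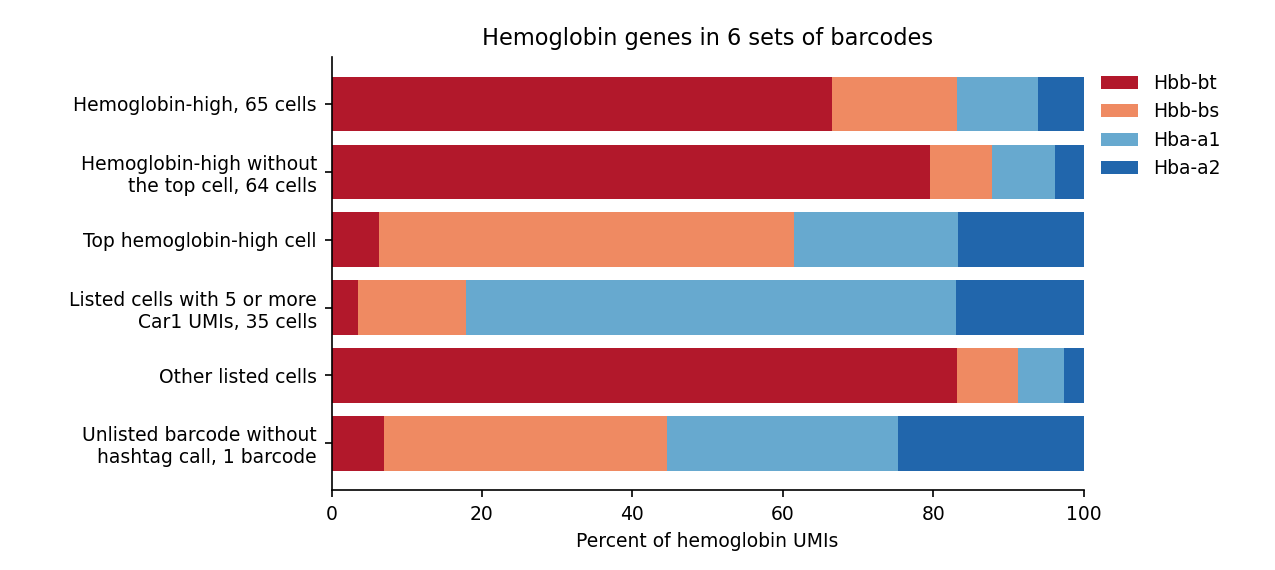
Bars give the percent of hemoglobin UMIs from each of the 4 genes, from top to bottom in the 65 hemoglobin-high cells, in 64 of them without the richest cell, in that cell, in 35 kept cells with 5 or more Car1 UMIs, in the other listed cells and in the barcode without a hashtag call. Hbb-bt gave 66.5%, 79.5%, 6.28%, 3.57%, 83.1% and 6.98% in that order.

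Hbb-bt RNA was found across the LSK compartment. Its levels in cells with different lineage genes are given over cells pooled from the 4 mice, and differences between these groups were not tested. A UMI of it was present in 18.4% of all kept cells (median depth 7897.5 UMIs), which sets the level against which single UMIs are read. The share was 4% (exact 95% interval 0.101% to 20.4%) in 25 cells with 5 or more UMIs of the neutrophil elastase gene Elane, although their median depth was 21411. It was 14.2% (10.9% to 18.2%) in 372 cells with 5 or more UMIs of Dntt, the terminal transferase gene of early lymphocytes (median depth 8961), and 22.0% (17.1% to 27.6%) in 259 cells with 2 or more UMIs of Procr (median depth 6969). It was 8.57% (1.80% to 23.1%) in the 35 Car1 cells (median depth 15161) and 15.5% (9.46% to 23.4%) in 116 cells with 5 or more UMIs of the platelet gene Pf4 (median depth 13181). In 417 cells with 5 or more UMIs of Cd48, the gene of a surface protein of committed progenitors, it was 26.4% (22.2% to 30.9%, median depth 14133). These cells share libraries and differ in depth, the groups can overlap and their cutoffs differ. The intervals take cells and not mice as the unit. Neither these shares nor the levels that follow set an order of the cell groups. Per 10000 gene UMIs, Hbb-bt was at 0.0189 in the Elane cells, 0.0687 in the Car1 cells, 0.359 in the Dntt cells, 0.374 in the Pf4 cells, 0.431 in the Cd48 cells and 1.27 in the Procr cells. Hemoglobin-high cells made up 5.71% of the Car1 cells (2 cells), 3.86% of the Procr cells (10 cells), 1.72% of the Pf4 cells (2 cells), 0.269% of the Dntt cells (1 cell), 0.240% of the Cd48 cells (1 cell) and none of the 25 Elane cells, against 1.87% of all kept cells.

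The other globin and terminal red cell genes named here were not detected in the hemoglobin-high cells. The embryonic and minor globin genes Hbb-y, Hbb-bh1, Hbb-bh2, Hba-x, Hbq1a and Hbq1b, Alas2, the erythroid enzyme that starts heme synthesis, Slc4a1, the anion exchanger of the red cell membrane, and Trim10 all had 0 UMIs among 513534 gene UMIs. A count of 0 allows up to 5.84 CPM (counts per 1000000 UMIs), 3 counts of that total.

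The remaining genes were compared by summing the counts of hemoglobin-high and of other cells in each mouse, and testing the 8 sums with edgeR's quasi-likelihood test with the mouse as a block (Benjamini-Hochberg adjusted p below 0.05). Of 9980 genes tested outside the hemoglobin genes, 62 passed (0.621%), 21 higher (0.21%) and 41 lower (0.411%) in hemoglobin-high cells. The median log2 fold change of all genes was −0.09. DESeq2, fitted to 16577 genes without the filter on low counts, called 20 genes outside the hemoglobin genes, 11 of them among the 62. Of the same 62, limma on the log2 ratio of each mouse called 2 (Dntt and H2afx). In 16 of the 62, 1 hemoglobin-high cell held 50% or more of the group's UMIs of the gene or the group had none. The sums of hemoglobin-high cells came from 10, 6, 28 and 21 cells.

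Mllt3 and Ltb rose among the stem cell genes, in edgeR alone. Of 30 tested genes of the stem cell list 2 rose, 0 fell and 28 did not pass, with a median log2 fold change of 0.18. DESeq2 called 0 of 33 and limma 0 of 30. Without cells holding 5 or more Car1 UMIs, 7 of 30 rose and 0 fell in edgeR, with a median of 0.32 against −0.10 for all genes. In that comparison 90 of 9928 genes were called (0.907%), 20 higher (0.201%) and 70 lower (0.705%). The 7 were Procr, Mllt3, Ltb, Hlf, Ly6a, Gimap1 and Ifitm1. This exclusion, like the setting with Hbb-bt only given below, was added after seeing the data. The gene lists were chosen with earlier results of these data known, so the count is a description. The Car1-rich cell supplied 43.9% of the UMIs of the 6 hemoglobin-high cells of Helios-deficient mouse 2 and had 0 UMIs of Procr and of Hlf.

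Mllt3, a chromatin reader that maintains stem cells, stood at 51.8 and 73.3 CPM in hemoglobin-high cells of Helios-deficient mice 1 and 2, and at 90.2 and 100.9 CPM in those of wild-type mice 1 and 2. In the other cells of the same mice it stood at 26.9, 42.5, 37.4 and 39.4 CPM. All 4 hemoglobin-high values exceeded all 4 others, an order that 9.26% of tested genes had, in one direction or the other. Its log2 fold change was 1.1 (SE 0.29, n = 4 mice, edgeR adjusted p = 0.0222). The call for Mllt3 was lost with DESeq2 (adjusted p = 0.112), without the mouse as a block (0.0626), with 50 hemoglobin-high cells (0.103) and without Helios-deficient mouse 1 or either wild-type mouse (0.0508 to 0.638). Ltb, the lymphotoxin beta gene, which was also on the lymphoid list, stood at 207, 103, 331 and 422 CPM in hemoglobin-high cells and at 114, 117, 169 and 171 CPM in other cells, in the same order of mice. It was higher in 3 of 4 mice, with a log2 difference of 0.86 (SE 0.17, edgeR adjusted p = 0.000345). That call was lost with DESeq2 (adjusted p = 0.201), without the mouse as a block (0.538) and without either wild-type mouse (0.129 and 0.639). In edgeR the Ltb call was also lost with each cell thinned to 3000 UMIs (0.80, 0.200). It was lost as well in cells of 4000 to 9000 UMIs (0.49, 0.803) and for the 65 cells with the most hemoglobin UMIs (0.40, 0.823).

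Procr stood at 117, 14.7, 80.1 and 89.1 CPM in hemoglobin-high cells and at 34.5, 43.4, 40.1 and 33.8 CPM in other cells. It was higher in 3 mice and lower in Helios-deficient mouse 2, and did not pass over all 65 cells (log2 fold change 0.99, SE 0.29, edgeR adjusted p = 0.0909). Without Car1-rich cells the value was 1.14 (SE 0.29, edgeR adjusted p = 0.0141), and Procr was still lower in Helios-deficient mouse 2, at 26.1 against 44.5 CPM. Emcn stood at 38.9, 29.3, 60.1 and 59.4 CPM against 24.4, 27.4, 25.9 and 24.2 CPM. These CPM did not overlap, as in 9.26% of tested genes. With the sums scaled as in the fit, Emcn was higher in 3 mice and lower in 1. Its fitted change of 0.95 on the log2 scale (SE 0.37) did not pass in edgeR (adjusted p = 0.415). A Procr UMI was found in 38.5% of hemoglobin-high cells (exact 95% interval 26.7% to 51.4%) and in 26.6% of other cells (25.2% to 28.2%). With each cell thinned to 3000 UMIs these shares were 20.3% and 12.9%.

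Hlf, a transcription factor gene of stem cells, stood at 155, 205, 281 and 184 CPM in hemoglobin-high cells and at 109, 126, 138 and 146 CPM in other cells, and was higher in 4 of 4 mice (log2 fold change 0.60, SE 0.19, edgeR adjusted p = 0.143). Without Car1-rich cells it was 0.77 (adjusted p = 0.00489), and Ly6a, the gene of the Sca1 sorting marker, was 0.68 (adjusted p = 0.0183). Gimap1 and Ifitm1, a lymphocyte GTPase and an interferon-induced membrane protein gene, were 0.55 and 0.37 there (adjusted p = 0.0497 and 0.0252). In the 52 cells with Hbb-bt only, 4 of the 30 stem cell genes rose and 0 fell, where 80 of 9924 genes were called (0.806%), 14 higher (0.141%) and 66 lower (0.665%). These were Procr (1.25, adjusted p = 0.00978), Ltb (1.09, 6.2e-07), Hlf (0.79, 0.0112) and Ly6a (0.78, 0.00867).

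**Figure D3:**
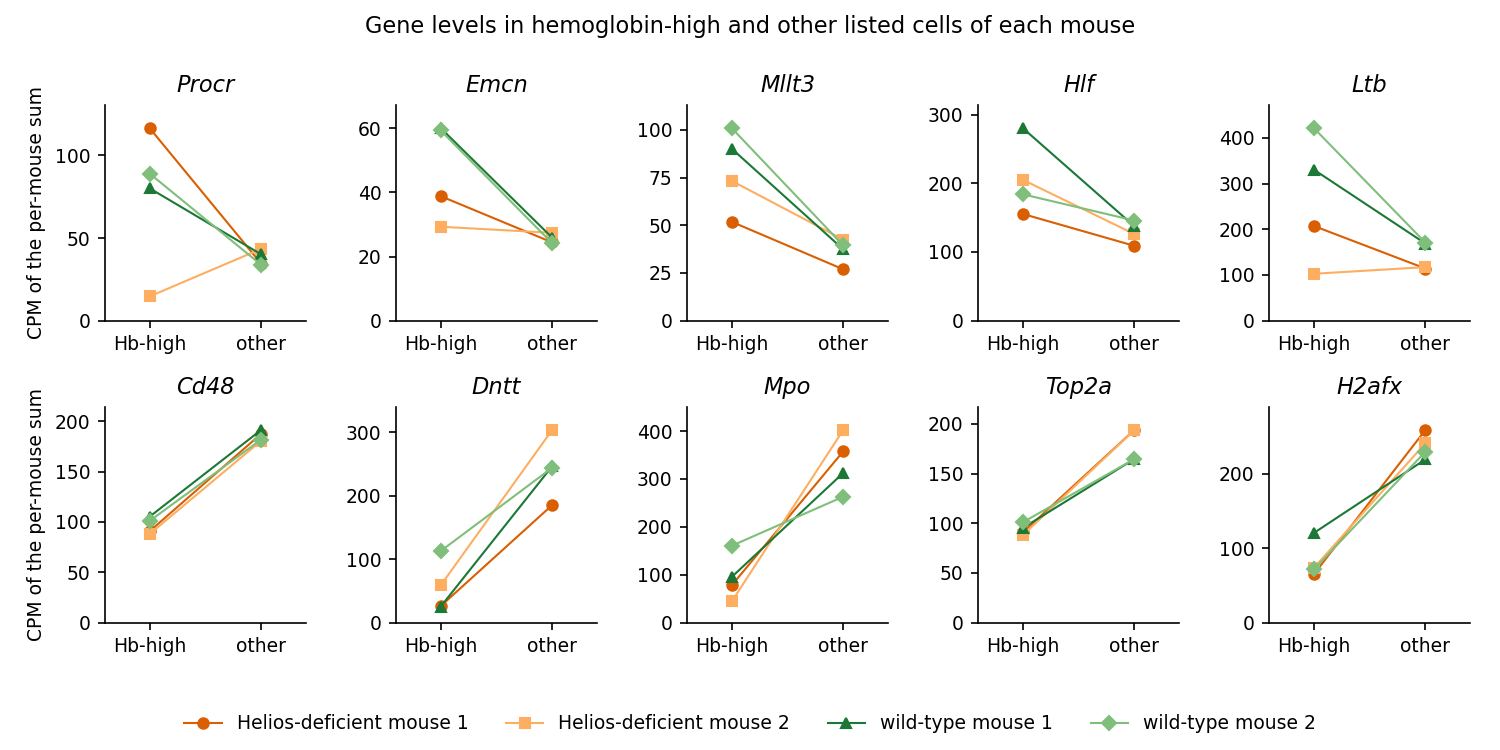
Each panel plots the CPM of a gene in the summed hemoglobin-high cells (left) and other listed cells (right) of each mouse, joined by a line. Cd48, Dntt, Mpo, Top2a and H2afx were lower in hemoglobin-high cells of 4 of 4 mice, and Mllt3 and Hlf were higher in 4 of 4.

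Some erythroid genes rose over the 65 cells, and edgeR called none higher without the Car1-rich cells. Of 12 tested late erythroid and reticulocyte genes 3 rose (Rhd, Car2 and Cpox), of 14 early erythroid genes 3 rose (Klf1, Blvrb and Tspan33), of 8 heme synthesis genes 1 rose (Cpox), and 0 fell in each list. The medians were 0.38, 0.70 and 0.40. Over the same 65 cells DESeq2 called 4 of 23, 0 of 16 and 0 of 9 genes of these lists higher. It called 0 lower, and limma called 0 in each list. Without Car1-rich cells, 11, 11 and 8 genes were tested, and 0 rose in each. Apoe of the early list fell there (−0.70, edgeR adjusted p = 0.00264), and the medians were −0.02, −0.29 and −0.22. Rhd and Klf1 then had too few counts to be tested. Car1 is itself on the early erythroid list, so leaving out cells by it removes erythroid cells by construction. Rhd, a blood group membrane protein gene, was read in the 2 Car1-rich hemoglobin-high cells and in no other hemoglobin-high cell, at 19 and 13 UMIs.

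Car2, the gene of a more widely expressed carbonic anhydrase, stood at 1477, 3942, 1548 and 2084 CPM in hemoglobin-high cells and at 1021, 1217, 1120 and 1187 CPM in other cells. Its log2 fold change was 0.78 (SE 0.10, edgeR adjusted p = 6.4e-11) over all 65 cells. Without Car1-rich cells it was 0.26 (adjusted p = 0.366). Of the other large rises with the same sign in all mice, Smim1 (3.00), St3gal5 (2.34), Hebp1 (1.97), Steap3 (1.94), Blvrb (1.60) and Cd24a (0.78) were not called there either. Smim1 encodes a blood group protein of red cells, Hebp1 a heme-binding protein, St3gal5 a ganglioside-forming sialyltransferase, Steap3 an iron reductase, Cd24a a surface glycoprotein and Blvrb a biliverdin reductase. Without Car1-rich cells Blvrb was at 0.27 (adjusted p = 0.905), Hebp1 at 0.25 (0.963), Steap3 at 0.35 (0.964), Cd24a at 0.24 (0.782) and St3gal5 at 1.36 (0.572), and Smim1 had too few counts to be tested.

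Rises still called without Car1-rich cells included H2-Aa, an MHC class II chain gene. It stood at 155, 73.3, 65.1 and 107 CPM in hemoglobin-high cells and at 46.3, 36.3, 33.7 and 49.3 CPM in other cells. These values did not overlap, as in 9.26% of tested genes. Its log2 fold change was 1.11 (SE 0.28, edgeR adjusted p = 0.0131), and 1.25 (0.0013) without Car1-rich cells. Scnm1, a splicing factor gene, had 1.04 (SE 0.27, edgeR adjusted p = 0.0201) over the 65 cells and 0.94 (0.0675) without Car1-rich cells.

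**Figure D4:**
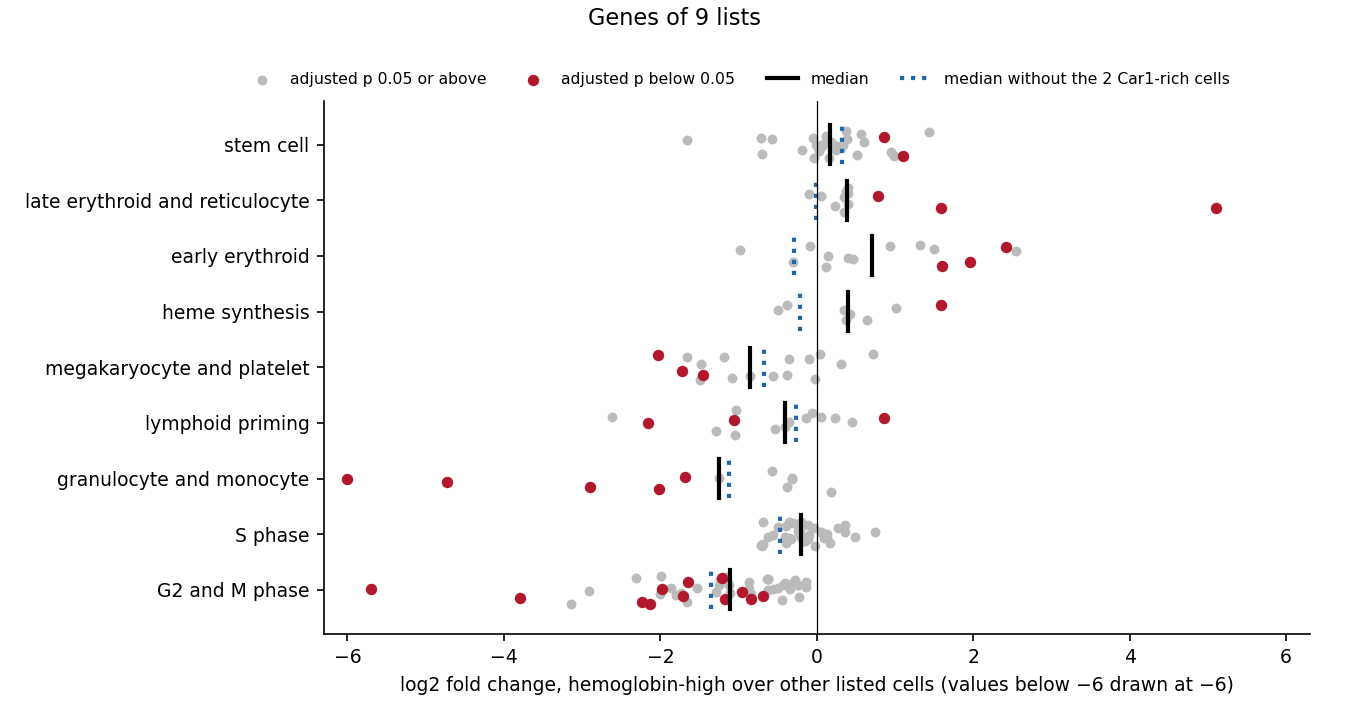
Points are the log2 fold changes of list genes in hemoglobin-high over other listed cells, red where the adjusted p was below 0.05, with values below −6 drawn at −6, the list median as a black line and the median without Car1-rich cells as a dotted blue line. The stem cell median lies to the right of 0 in either case (0.18 and 0.32), the erythroid medians move to the left of 0 without the Car1-rich cells, and the G2 and M phase median lies to the left in either case (−1.11 and −1.35).

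Several genes of the lymphoid, granulocyte-monocyte and megakaryocyte branches fell. Dntt had 25.9, 58.6, 25 and 113 CPM in hemoglobin-high cells and 185, 304, 247 and 244 CPM in other cells. The groups did not overlap, as in 9.26% of tested genes, and the log2 fold change was −2.16 (SE 0.24, edgeR adjusted p = 1.1e-15, limma adjusted p = 0.0143). Over the lymphoid list of 15 tested genes, 2 fell, Dntt among them, and 1 rose (Ltb), with a median of −0.41.

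Of 11 tested granulocyte and monocyte genes 5 fell, 0 rose and 6 did not pass, with a median of −1.25. Mpo, the myeloperoxidase gene, had 77.7, 44.0, 95.2 and 160 CPM in hemoglobin-high cells and 358, 402, 313 and 263 CPM in other cells (log2 fold change −1.68, SE 0.20, edgeR adjusted p = 1.9e-13). The granule protease gene Ctsg (−2.01), Elane (−2.90) and the monocyte surface gene Ly6c2 (−4.72) also fell. Ms4a3, a membrane protein gene of granulocyte-monocyte progenitors, had 0 UMIs in hemoglobin-high cells of all 4 mice, against 41.7, 32.1, 14 and 13.9 CPM in the other cells. Ly6c2 was read once and Ctsg in 4 cells of the 65. Elane had 0, 14.7, 10.0 and 11.9 CPM in hemoglobin-high cells against 168, 136, 57.3 and 6.34 CPM in other cells, and was thus higher in hemoglobin-high cells of wild-type mouse 2. An Elane UMI was found in 7.69% of hemoglobin-high cells and in 4.85% of other cells, and in 3.13% and 1.92% with each cell thinned to 3000 UMIs. DESeq2 called 2 of 20 genes of the list lower, Mpo and Ly6c2, and limma called 0 of 11.

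Of 17 tested megakaryocyte and platelet genes 3 fell, 0 rose and 14 did not pass, with a median of −0.86. Pf4, the platelet chemokine gene, fell by 1.46 on the log2 scale (SE 0.25, edgeR adjusted p = 3.2e-06), and Plek, the pleckstrin gene, by 1.72. DESeq2 called 0 of 23 and limma 0 of 17. The Pf4 call was lost with DESeq2 (adjusted p = 0.0998), without the mouse as a block (0.71) and with thinned cells (−0.60, 0.871), and in cells of 4000 to 9000 UMIs Pf4 was at 0.35 (0.999). A Pf4 UMI was found in 23.1% of hemoglobin-high cells and in 21.0% of other cells, or in 17.2% and 11.2% with thinned cells. Itga2b, which encodes CD41, had 0, 0, 15.0 and 17.8 CPM in hemoglobin-high cells and 40.7, 48.1, 43.4 and 46.9 CPM in other cells, a log2 difference of −2.03 (SE 0.50, edgeR adjusted p = 0.0127). That call was lost with DESeq2 (0.59), with thinned cells (−0.86, 0.927), in cells of 4000 to 9000 UMIs (−0.56, 0.999) and without any 1 of the 4 mice (0.0658 to 0.0818).

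Genes of cell division fell too. Of 50 tested G2 and M phase genes 12 fell, 0 rose and 38 did not pass, and all 50 fold changes were negative, with a median of −1.11. DESeq2 called 1 of 51 lower and limma 0 of 50. Ube2c, the gene of a ubiquitin carrier that drives mitotic exit, was read once in the 65 cells and in 481 of the other cells. It had 0, 14.7, 0 and 0 CPM in hemoglobin-high cells and 117, 114, 81.3 and 99.6 CPM in other cells. Top2a, the topoisomerase of mitotic chromosomes, had 90.7, 87.9, 95.2 and 100.9 CPM against 194, 194, 165 and 165 CPM (log2 fold change −0.96, SE 0.22, edgeR adjusted p = 0.00444).

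The spindle gene Nusap1 (−3.79), the kinetochore gene Cenpf (−2.23), the kinase gene Aurkb (−2.13), the proliferation marker gene Mki67 (−1.98), Cdc20, an activator of the anaphase complex (−1.71), and the chromatin gene Hmgb2 (−0.69) fell as well. H2afx, which encodes the histone variant that marks DNA breaks, had 64.8, 73.3, 120 and 71.2 CPM against 258, 241, 219 and 229 CPM, a difference of −1.49 on the log2 scale (SE 0.22, edgeR adjusted p = 1.2e-08, limma adjusted p = 0.013). Of 40 S phase genes, edgeR called 0 and DESeq2 0, with 3 below an unadjusted 0.05 and a median of −0.20.

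The cell cycle calls depended on which cells were taken and on how depth was treated. The share of hemoglobin UMIs has the cell's total in its divisor, and hemoglobin-high cells had a median of 6609 gene UMIs against 7928 in other cells. The ratio of their medians was 0.770 and 0.873 within Helios-deficient mice 1 and 2, and 0.827 and 0.832 within wild-type mice 1 and 2, given without a test because the total entered the selection. With each cell thinned to 3000 UMIs, 9 of 7437 genes were called, 0 higher and 9 lower (0.121%), among them Ube2c (−9.22, edgeR adjusted p = 0.018, a fitted value and no bound) and Hmgb2 (−1.01, 0.00207). Cdc20 (−3.44, 0.254), Top2a (−1.29, 0.51) and H2afx (−1.0, 0.51) kept their sign there and did not pass. When the 65 cells with the most hemoglobin UMIs were taken instead, which changes the members, 38 of 10046 genes were called (0.378%), 22 higher (0.219%) and 16 lower (0.159%). There 0 of 50 G2 and M phase genes and 0 of 30 stem cell genes passed, with medians of −0.22 and 0.02. In that selection Ube2c was at −0.18 and Cd48 at −0.52 (edgeR adjusted p = 0.999 and 0.495), while Dntt (−1.14, 1.8e-05) and Mpo (−1.14, 5.0e-08) still fell. In cells of 4000 to 9000 UMIs (45 hemoglobin-high and 1960 others) 4 genes passed (0.0514%), all lower and Dntt among them, while Mpo was at −0.70 (edgeR adjusted p = 0.999), with medians of −0.55 for 22 G2 and M phase genes and 0.10 for 26 stem cell genes.

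Among the other listed cells, those with at least 1 hemoglobin UMI were deeper than those with none, at a median of 9560 against 7699 UMIs. Compared in the same way, 288 of 10282 genes passed (2.8%), 186 higher (1.81%) and 102 lower (0.992%). Of the G2 and M phase genes 29 of 50 rose and 0 fell there (median 0.39), and 7 of 30 stem cell genes fell and 0 rose (median −0.14). A deeper cell is more likely to show at least 1 hemoglobin UMI, so this split selects on depth by its construction, and depth and hemoglobin cannot be told apart in it. Without the mouse as a block, 4 genes passed.

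For CD48 both the surface protein and the RNA had lower values. The CD48 tag had a median of 76 UMIs in hemoglobin-high cells against 112 in other cells. By mouse the medians were 76, 75.5, 69 and 101 in hemoglobin-high cells against 104, 103, 114 and 122 in other cells, lower in 4 of 4 mice. The mean difference of log2(UMI + 1) was −0.32 ± 0.14 (SD, n = 4 mice, exact two-sided sign-flip permutation test p = 0.13, the smallest that 4 mice allow). Cd48 RNA had 90.7, 87.9, 105 and 100.9 CPM against 188, 181, 191 and 182 CPM, with no overlap and a fitted log2 change of −1.0 (SE 0.22, edgeR adjusted p = 0.00177). The Cd48 call was lost with DESeq2 (adjusted p = 0.139) and with limma (0.121). In edgeR it was lost with thinned cells (−1.23, 0.254), in cells of 4000 to 9000 UMIs (−0.47, 0.999) and by raw hemoglobin UMIs (−0.52, 0.495). It held in edgeR without Car1-rich cells (−0.88, 0.0113), with Hbb-bt only (−1.14, 0.00231) and with 100 hemoglobin-high cells (−0.83, 0.00054). CD48 is absent from the most primitive stem cells and appears on committed progenitors.

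The other tags moved less. CD150, the SLAM receptor of stem cells, had a median of 88 against 78 UMIs, higher in 3 of 4 mice, with a mean log2 difference of 0.10 ± 0.14 (n = 4, exact p = 0.375). CD41 differed by −0.05 ± 0.08 (exact p = 0.375, n = 4) and CD135 by 0.02 ± 0.03 (exact p = 0.375, n = 4). Adjusted over the 4 tags no p was below 0.375. Slamf1, the CD150 gene, was read in 2 hemoglobin-high cells (log2 fold change −0.71, SE 1.06), and Flt3, the CD135 gene, was at −0.54 (SE 0.23, edgeR adjusted p = 0.562).

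Markers of other cell types were at 0 or low in hemoglobin-high cells for some lists and at the level of the other cells for others. Of 12 neutrophil genes 11 had 0 UMIs, with the list summing to between 0 and 5.94 CPM in hemoglobin-high cells against 5.61 to 20.3 CPM in other cells. Of 18 macrophage genes 9 had 0 UMIs, among them Adgre1, Vcam1 and Cd5l, and the list summed to 160 to 220 CPM against 162 to 188 CPM, with 0 of 7 tested genes called by edgeR and by DESeq2 and 0 below an unadjusted 0.05. The B and plasma cell list summed to 73.3 to 255 CPM against 186 to 6283 CPM, with Cd79a, Ms4a1 and Jchain at 0, and 1 of 4 tested genes fell (Igha, read once in hemoglobin-high cells). An Igkc UMI, from the kappa light chain gene, was found in 29.2% of hemoglobin-high cells and in 26.8% of other cells. In the T and NK cell list, Cd3d, Cd3e, Cd3g and Trac were at 0, Nkg7 fell (−0.71) and Trbc2 rose (2.83, adjusted p = 0.000416), with 11 of its 14 UMIs in 1 cell. Of 15 endothelial genes 7 were at 0, Cdh5 and Kdr among them, and edgeR called 0 of 5 tested with 1 below an unadjusted 0.05 and DESeq2 called 0.

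In the mast cell and basophil, interferon response, immediate early, oxidative phosphorylation, MYC and nucleolar, and Ikaros family lists, edgeR and DESeq2 called 0 genes. Of their 2, 20, 13, 24, 20 and 3 tested genes, 1, 2, 1, 2, 4 and 0 lay below an unadjusted 0.05. Ikzf2 itself had 77.7 and 29.3 CPM in the hemoglobin-high cells of the Helios-deficient mice and 100 and 53.4 CPM in those of the wild-type mice, against 73.6, 83.2, 70.0 and 68.0 CPM in the other cells, in the same order of mice. Its log2 fold change between the cell classes was −0.12 (SE 0.28). Its level does not check the genotype labels, since the labels do not say which exons were removed and a 3′ tag reads the transcript end.

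The share of hemoglobin-high cells lay lower in both Helios-deficient mice, in a design that cannot test it below 0.05. They made up 10 of 557 cells (1.80%, exact 95% interval 0.864% to 3.28%) and 6 of 824 (0.728%, 0.268% to 1.58%) in Helios-deficient mice 1 and 2, against 28 of 1175 (2.38%, 1.59% to 3.43%) and 21 of 914 (2.30%, 1.43% to 3.49%) in wild-type mice 1 and 2. The means differed by −1.08 percentage points (n = 2 mice each, exact two-sided permutation test p = 0.333, the smallest that 2 against 2 mice allow). Intervals cover counting error only.

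Hbb-bt RNA outside the selected cells had the same order of mice. In the other listed cells Hbb-bt stood at 30.4 and 25.2 CPM in Helios-deficient mice, against 43.6 and 47.8 CPM in wild-type mice. Over all kept cells it stood at 52.0 and 32.9 CPM in Helios-deficient mice, against 78.3 and 86.9 CPM in wild-type mice. Both Helios-deficient mice lay below both wild-type mice, which 21.3% of 11592 tested genes did, while 19.9% had the opposite order. The log2 fold change was −0.99 (SE 0.25), with an edgeR adjusted p of 0.384, so it did not pass in a fit that called 92 of 11592 genes (0.794%), 42 higher (0.362%) and 50 lower (0.431%). The call depended on the setting. Without the filter on low counts the edgeR adjusted p was 2.3e-08, and DESeq2 gave 0.646. Leaving out any 1 mouse gave log2 fold changes of −1.33 to −0.66. Each such fit had 1 mouse alone in its genotype and took the spread from the other 2 mice, so the smaller p-values of those fits are not given.

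Depth differed between the genotypes, with medians of 8670 and 8461 UMIs in cells of the Helios-deficient mice against 7599 and 7627 in those of the wild-type mice, and its part in the difference was not tested. Cells with 5 or more Hbb-bt UMIs made up 3.05% and 1.82% of the cells of the Helios-deficient mice, against 3.57% and 4.49% of those of the wild-type mice. For the other hemoglobin genes the genotypes differed by −1.70 (Hbb-bs, SE 0.91), −0.76 (Hba-a1, SE 0.98) and −1.50 (Hba-a2, SE 0.50), with edgeR adjusted p of 0.709, 0.883 and 0.331. The hemoglobin-richest cell, in wild-type mouse 2, held 132 of the 193 Hbb-bs UMIs of that mouse.

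**Figure D5:**
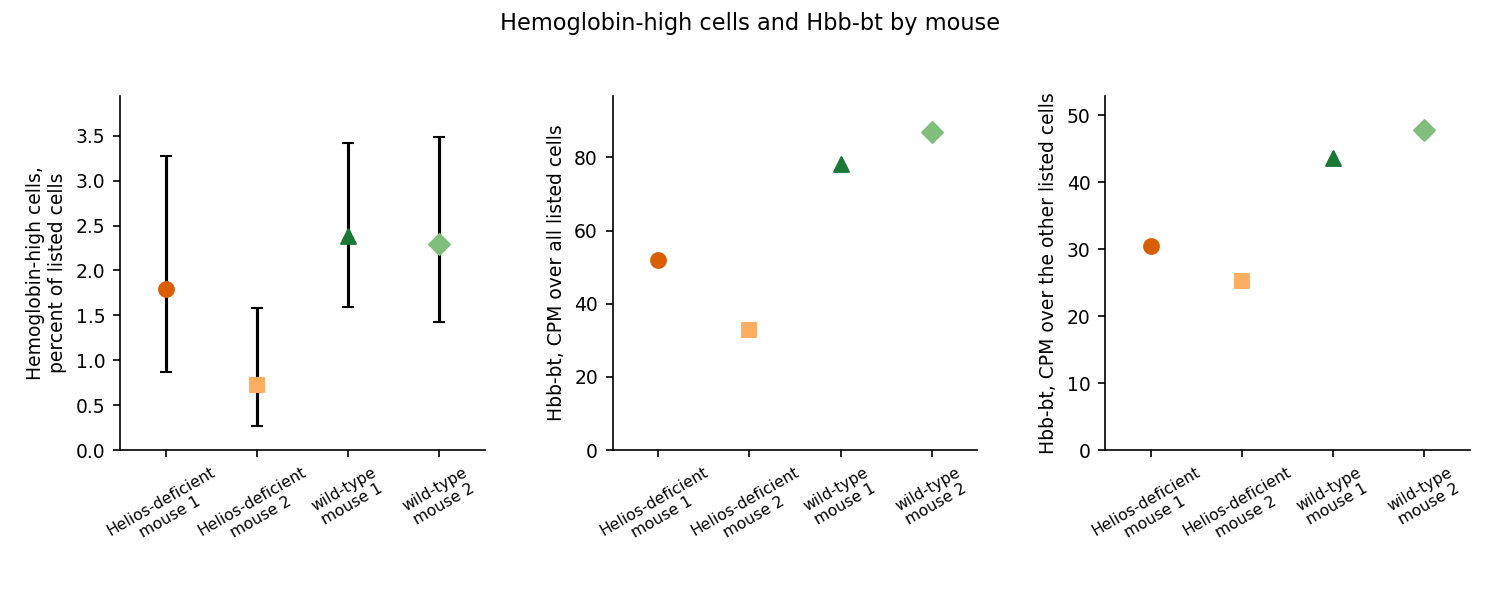
From left to right the panels give hemoglobin-high cells as a percent of kept cells (bars are exact 95% binomial intervals), Hbb-bt CPM over all kept cells and Hbb-bt CPM over the other listed cells, for each mouse. Both Helios-deficient mice lie below both wild-type mice in every panel.

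Within hemoglobin-high cells, edgeR called 0 of 2035 tested genes between the genotypes (0%), with 76 below an unadjusted 0.05, and DESeq2 called 0 with 13 below an unadjusted 0.05. The Helios-deficient sums came from 10 and 6 cells. The difference of the genotype effect between hemoglobin-high and other cells passed for 3 of 9984 genes (0.03%), 1 upward (0.01%) and 2 downward (0.02%), and for 0 with DESeq2, which had 70 below an unadjusted 0.05. Ctse, an intracellular protease gene, had 0 and 264 CPM in hemoglobin-high cells of Helios-deficient mice 1 and 2 and 90.2 and 89.1 CPM in those of wild-type mice 1 and 2, against 8.85, 11.6, 80.7 and 81.8 CPM in the other cells. Of its UMIs, 17 came from the Car1-rich cell of Helios-deficient mouse 2, and without Car1-rich cells the interaction was 0.25 (edgeR adjusted p = 1).

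Ctsg had 0 and 0 CPM in hemoglobin-high cells of the Helios-deficient mice and 40.1 and 35.6 CPM in those of the wild-type mice, against 197, 182, 71.4 and 62.1 CPM in the other cells. Its 14 UMIs lay in 4 of the 65 cells. Cd3eap, an RNA polymerase I subunit gene, had 13.0 and 0 CPM in Helios-deficient hemoglobin-high cells and 100 and 113 CPM in wild-type ones, against 52.4, 45.8, 47.8 and 40.6 CPM in the other cells (interaction −4.25 on the log2 scale, SE 0.97, edgeR adjusted p = 0.0424). Each of these 3 interactions lost its call when either wild-type mouse was left out.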

How the data were processed

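Single-cell RNA and antibody counts came from 1 droplet run of 4 hashtagged mice. The authors deposited a matrix of UMI counts (31053 genes and 4 antibody tags), hashtag calls and a list of kept barcodes. Per the submitters' processing notes, Cell Ranger and Seurat 3.0.0 were used with mm10, and per the file headers the matrix came from software version 3.0.2. Cells were ranked by hemoglobin share, and counts were summed per mouse and cell class. Sums were tested with edgeR 4.0.16 (TMM, robust quasi-likelihood fit, filterByExpr, mouse as block, Benjamini-Hochberg adjustment) in R 4.3.3, with DESeq2 1.42.0 and limma 3.58.1 as alternatives. Here 1 mouse is 1 replicate, and the block pairs both cell classes of the same mouse. Shares have exact Clopper-Pearson 95% intervals. Tags and shares were tested by exact permutation over mice with scipy 1.17.1. Genes were named for Ikzf2, the antibody targets, Procr and Emcn, for the 10 largest called rises and falls with 1 sign in all 4 mice and a mean of at least 10 CPM, and for up to 4 smallest p-values per list. Gene lists, members and rules were chosen with earlier results of these data known. The alternatives without Car1-rich or very deep cells, with Hbb-bt only, within 4000 to 9000 UMIs and with limma were added after seeing the data. No doublet caller was run, and barcodes with several hashtags are not among the kept cells. Only the edgeR fit of hemoglobin-high against other cells was tested on simulated data, which carried no mouse effect. Changed genes had at least 50 CPM. Of 100 genes changed 2-fold 79 were recovered, and of 100 changed 4-fold 100 were, with 7 false calls over 9984 genes. Some genes of the lists are not reported here by name.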

Additional observations from a re-analysis of the deposited data

Results flagged for a closer look

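Among the 4 mice, 1 value stood far from the other 3 for 9 gene and class pairs, by a gap that chance gives in about 1 of 20 groups. How many pairs were searched is not given here, so the 9 cannot be set against that rate. Where the other 3 mice are at 0, any value gives the largest possible gap, and the rate does not apply. Hbb-bs stood at 902 CPM in hemoglobin-high cells of wild-type mouse 2, which held the hemoglobin-richest cell. Steap3 stood at 132 CPM in those of Helios-deficient mouse 2. Ube2c stood at 14.7 CPM in those of Helios-deficient mouse 2, Ly6c2 at 5.01 CPM in those of wild-type mouse 1 and Igha at 5.94 CPM in those of wild-type mouse 2, each from 1 UMI with the other mice at 0. H2afx stood at 120.2 CPM in those of wild-type mouse 1. In the other listed cells, Igha stood at 869 CPM in Helios-deficient mouse 2, Klf1 at 5.24 CPM in wild-type mouse 1 and Plek at 55.8 CPM in wild-type mouse 2.

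The genotype effect differed between hemoglobin-high and other cells, by edgeR's interaction test, for Ctse (3.28 on the log2 scale), Ctsg (−11.7, a fitted value against 0 UMIs and no bound) and Cd3eap (−4.25). A barcode that no comparison used, without a hashtag call, had hemoglobin for 43% of its UMIs.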

How the results depend on the processing

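The 62 genes called between hemoglobin-high and other cells became 38 (22 higher and 16 lower) for the 65 cells with most raw hemoglobin UMIs, 4 within 4000 to 9000 UMIs, 31 with no replicate block, 9 with cells thinned to 3000 UMIs, 2 with limma and 20 (14 higher and 6 lower) with DESeq2, and 31 to 58 leaving out 1 mouse, with 31 (6 higher and 25 lower) without wild-type mouse 2. Without TMM scaling 57 were called, 31 higher and 26 lower, against 21 and 41 with it. Of the other settings, no filter gave 85, no robust option 77, 50 cells 69, 100 cells 63, Hbb-bt only 80, without cells over 20000 UMIs 67 and without Car1-rich cells 90. The 0 genes between genotypes among hemoglobin-high cells became 3 with no filter, 1 without very deep cells, 1 without Car1-rich cells, 8 within the depth band, and 0 to 66 leaving out 1 mouse, with 66 without Helios-deficient mouse 1. The 3 interaction genes became 0 without the robust option, 1 with 50 cells, 1 by raw UMIs, 0 for Hbb-bt only, 1 without very deep cells, 1 without Car1-rich cells, 0 with DESeq2, and 0 to 32 leaving out 1 mouse, with 32 without Helios-deficient mouse 1. The 288 genes between other cells with and without hemoglobin UMIs became 39 with DESeq2, 4 with no replicate block and 148 to 210 leaving out 1 mouse. The 92 genes between genotypes over all kept cells became 296 with no filter, 33 with DESeq2 and 126 to 563 leaving out 1 mouse, with 563 without Helios-deficient mouse 2. Between genotypes, leaving out 1 mouse leaves the other of its genotype alone, and its spread is taken to equal that of the other genotype. The cause of these shifts was not tested.

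Directions turned for the CD41 tag by raw UMIs (0.014) and as a share of the 4 tags (0.366), for CD135 with 50 cells (−0.047) and for depth by raw UMIs (0.067). Among genes they turned for Ikzf2 with 100 cells (0.12), without very deep cells (0.033) and without Car1-rich cells (0.059), and its range leaving out 1 mouse was −0.55 to 0.10. Ifitm1 ranged from −0.021 to 0.48 leaving out 1 mouse. Blvrb was at −0.046 and Klf1 at −8.15 for Hbb-bt only, Car2 at −0.029 and Pf4 at 0.35 within the depth band, and Cenpf at 0.059 by raw UMIs. The Ctse interaction was −8.29 without Helios-deficient mouse 2 (4.24 without mouse 1), −0.021 for Hbb-bt only and −0.071 within the band. Between genotypes Hba-a1 ranged from −1.45 to 0.34 leaving out 1 mouse. Of 857 gene values under alternatives 519 kept direction and call, 295 lost the call, 29 gained it and 14 turned. Sums over 6 to 28 cells limit every gene result.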
